A study of Mus musculus with 4 samples.

Results

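The interferon-induced PARP genes Parp9, Parp10, Parp12 and Parp14 were followed in RAW264.7, an established mouse macrophage-like cell line, on 4 Agilent 1-colour arrays. They were chosen by gene name: a probe belonged to the set when the array design gave it the name of one of the 4 genes. This found 4 probes, 1 for each gene, among 55681 distinct probes that carry 36091 gene names or identifiers. All cells carried a stably integrated vector for an artificial microRNA and had been selected with blasticidin as bulk cultures, so no single clone stands behind a group. The 4 groups, of 1 array each, were cells labelled with the Linc-AAM knockdown vector under AEPS, the same cells in DMEM, cells labelled with the Scramble vector under AEPS, and the same cells in DMEM. Linc-AAM is a long intergenic non-coding RNA, and AEPS is a polysaccharide from the roots of Actinidia eriantha, given at 50 µg/mL for 4 h in DMEM medium. The design sets AEPS against plain medium in these macrophages, and the knockdown vector against the Scramble vector.

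PARP enzymes take ADP-ribose from NAD and attach it to proteins or nucleic acids. The best known of them, PARP1 and PARP2, build long chains at DNA breaks. PARP9, PARP10, PARP12 and PARP14 belong to a branch that transfers single ADP-ribose units or has little activity alone, and they are known as targets of interferon in many cell types. Interferon binds its receptor, kinases at the receptor then activate transcription factors, and these bind a promoter element called ISRE. Macrophages make interferon beta themselves when their pattern recognition receptors are engaged, and interferon target genes are a common part of what they then express.

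The probes of Parp9, Parp10 and Parp14 are shown because each gene rests on the hybridisation of 1 sequence. Their last 30 bases at the 3′ end are given as the array design lists them, and capitals mark AATAAA, the letters of the polyadenylation signal, which occur in the Parp10 stretch and in neither of the others.
Parp9: ctaggacaacaggatgatttcaggttttct
Parp10: ctgtctttgAATAAAcctgtacttgaaacc
Parp14: cattcaaagtaaatatgtcattgtcttcac
On the mm9 build the whole probes lie at chr16:35972577-35972636 on the plus strand for Parp9, chr15:76063433-76063492 on the minus strand for Parp10, chr6:39036828-39036887 on the minus strand for Parp12 and chr16:35832992-35833051 on the minus strand for Parp14. The Parp14 and Parp9 probes are 139.5 kb apart on chromosome 16. The exon or untranslated region under each probe was not analysed here.

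Between 53.4% and 58.0% of the non-control spots were well above background on an array, and 0 were saturated. Of 8 macrophage markers, 7 were well above background on all 4 arrays, among them Cd68, Csf1r, Adgre1 and Lyz2, while Mertk was not well above background on any. Epcam, Krt8 and Cdh1 of the epithelium, Pdgfra of fibroblasts, Cd3g and Cd8a of T cells and Ms4a1 of B cells were not well above background on any array. Cd3e, Cd4, Cd79a and Col1a2 were well above background on all 4. Some markers moved with the groups: of 4 fibroblast genes, 2 (Col1a1 and Col1a2) were well above background under AEPS and 1 in DMEM on the arrays labelled knockdown, and 3, with Dcn, on either array labelled scramble, while the epithelial Krt18 was so on the scramble-labelled AEPS array alone. The summed level of the 4 fibroblast genes, where 1 is an array's 75th percentile, was 0.243 under AEPS and 0.117 in DMEM on the arrays labelled knockdown, and 0.315 and 0.152 on those labelled scramble. That of the 8 macrophage genes was 751.3 and 707.4, and 799.5 and 722.4. The 4 T cell genes summed to 6.99 and 7.11, and 6.44 and 6.82, while the B cell and the epithelial genes each summed to less than 1 on every array. The part of these markers in the results was not tested. A search of the probe names for Linc-AAM found 0 probes, so the target of the knockdown was not analysed here. The line labels are in conflict: each column of the authors' deposited value table had a Spearman's rho that rounds to 1.0 with the scanner array of the other line and the same medium, and of 0.969 with the array of its own label, across probes. The arrays are therefore called "labelled knockdown" and "labelled scramble", as the scanner files have them. With the labels of the value table, what is lower in the knockdown line becomes higher, whereas AEPS against DMEM, averaged over the lines, keeps its direction. A cell line in bulk culture cannot tell fewer responding cells from less RNA per cell.

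Levels are given as log2 of the processed signal minus the 75th percentile of the same array, so that 0 is the brightness of a spot at that percentile. Each member had 1 spot per array, well above background, unsaturated and free of outlier marks on all 4. The scanner's own error was close to 10.0% of the signal for each of these spots, which puts an error of about 0.204 on a log2 difference between 2 arrays. This share was nearly the same at signals from 339.486 to 26403.1, so it is a common yardstick and not a spread measured per spot. Probes printed 10 times had a smaller median SD between spots, 0.0359 to 0.0458 log2 units. Both leave out the spread between cultures, which 1 array per group cannot show.

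PARP14, which carries several macrodomains that bind ADP-ribose and is known in mouse as a co-activator of STAT6, had the widest range of the 4 genes. Parp14 had a log2 level of 3.18 under AEPS and -0.37 in DMEM on the arrays labelled knockdown, and of 5.69 under AEPS and 1.32 in DMEM on the arrays labelled scramble. The AEPS arrays of either line thus lay above the DMEM arrays of both, and the knockdown-labelled array was the lower in either medium. In processed signal, which is not scaled between arrays, Parp14 read 4065.68 under AEPS against 339.486 in DMEM on the knockdown-labelled arrays and 26403.1 against 1464.19 on the scramble-labelled arrays.

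PARP9 has macrodomains too and works bound to DTX3L, an E3 ubiquitin ligase, as shown mostly in human cells. Parp9 had a log2 level of 2.54 under AEPS and 1.15 in DMEM on the arrays labelled knockdown, and of 4.04 under AEPS and 2.0 in DMEM on the arrays labelled scramble. In processed signal these were 2609.62 against 971.513 on the knockdown-labelled arrays and 8410.45 against 2354.55 on the scramble-labelled arrays. PARP10 attaches single ADP-ribose units and was first described as a partner of MYC. Parp10 had a log2 level of 3.97 under AEPS and 2.72 in DMEM on the arrays labelled knockdown, and of 5.44 under AEPS and 3.10 in DMEM on the arrays labelled scramble. Its processed signal was 7012.77 against 2892.47 on the knockdown-labelled arrays and 22196.2 against 5034.08 on the scramble-labelled arrays. Parp9, Parp10 and Parp14 shared 1 order of the arrays: scramble-labelled under AEPS, knockdown-labelled under AEPS, scramble-labelled in DMEM, then knockdown-labelled in DMEM. For each of these 3 genes the neighbours in that order differed by more than the scanner's error.

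PARP12, a zinc-finger member with antiviral activity, had its arrays in another order. Parp12 had a log2 level of 0.12 under AEPS and 0.0099 in DMEM on the arrays labelled knockdown, and of 1.42 under AEPS and 0.24 in DMEM on the arrays labelled scramble. The scramble-labelled array under AEPS stood apart and the other 3 lay close together. The knockdown-labelled array under AEPS was 0.13 log2 units below the scramble-labelled array in DMEM, and 0.11 above its own DMEM array, both within the scanner's error of a difference. In processed signal Parp12 read 485.964 under AEPS against 442.085 in DMEM on the knockdown-labelled arrays and 1364.91 against 695.814 on the scramble-labelled arrays.

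**Figure D1:**
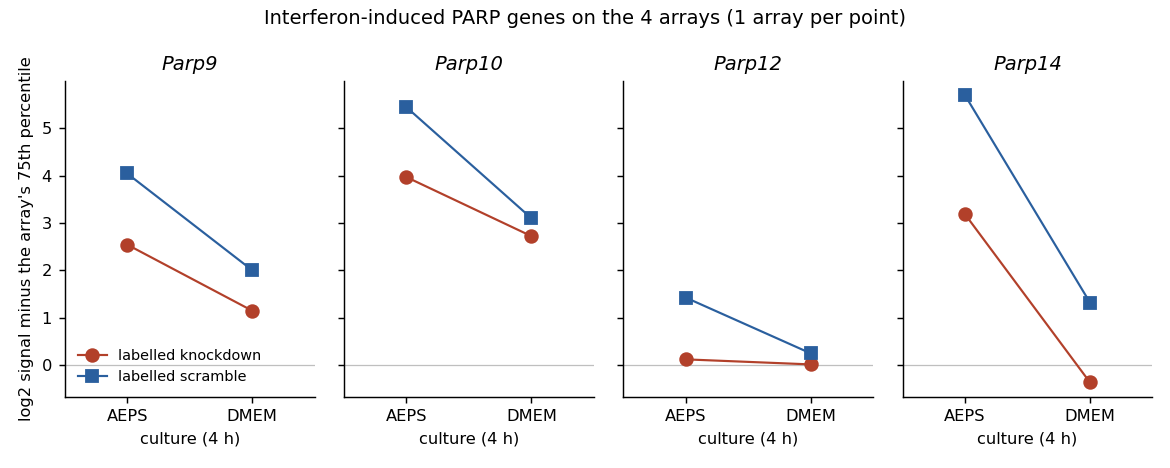
Log2 level of each gene on the 4 arrays (y axis, log2 processed signal minus the array's 75th percentile) under AEPS and in DMEM (x axis), with 1 point per array, circles for arrays labelled knockdown and squares for arrays labelled scramble. Parp14 spans from -0.37 to 5.69, and Parp12 is nearly level between the knockdown-labelled arrays, at 0.12 under AEPS and 0.0099 in DMEM.

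Over both lines, Parp9, Parp10 and Parp14 rose under AEPS and Parp12 did not pass the test. The additive limma model of line and medium, with Benjamini-Hochberg adjustment over 22341 genes, called 3 of the 4 members higher, while 7.39% of all genes tested were called higher and 7.28% lower. Parp14 rose by 3.96 ± 0.24 on the log2 scale (SE, 2 arrays per medium), which is 15.6-fold, with an adjusted p of 0.00884. Parp10 rose by 1.80 ± 0.30, or 3.47-fold, with an adjusted p of 0.0396. Parp9 rose by 1.72 ± 0.20, or 3.29-fold, with an adjusted p of 0.0216. Parp12 was 0.64 ± 0.30 higher, with an adjusted p of 0.222. The residual of this model has 1 degree of freedom and consists of the difference in response between the lines, so a gene whose lines respond unequally is less easily called. Without the filter on dim genes the limma model called 1 of the 4 members, Parp14, with adjusted p-values of 0.0895 for Parp9 and 0.130 for Parp10, the highest of the 8 settings tried. In the 7 others Parp9 and Parp10 were called, at adjusted p-values down to 8.69e-05 and 0.000354. The mean of all probes is among these, and it leaves the members' own levels unchanged because each has 1 probe.

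Taken line by line, with no test because a group holds 1 array, all 4 members were higher under AEPS in either line. For Parp12 on the knockdown-labelled arrays the difference, 0.11 log2 units, was within the scanner's error. The median over all genes was also positive, at 0.058 on the knockdown-labelled arrays and 0.064 on the scramble-labelled ones. On the arrays labelled knockdown 3 members reached 2-fold, against 4.64% of all genes called higher there and 3.49% called lower. The AEPS array was 11.7 times the DMEM array for Parp14, 2.63 times for Parp9, 2.37 times for Parp10 and 1.08 times for Parp12. On the arrays labelled scramble all 4 reached 2-fold, against 6.69% of all genes called higher and 5.22% called lower. There the AEPS array was 20.8 times the DMEM array for Parp14, 5.08 times for Parp10, 4.12 times for Parp9 and 2.26 times for Parp12. Parp14 ranked 101 from the top of 22275 genes with a measured effect on the knockdown-labelled arrays and 122 of 23098 on the scramble-labelled ones. Parp9 ranked 650 and 647 there, Parp10 761 and 516, and Parp12 9947 and 1286.

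The response to AEPS was smaller on the arrays labelled knockdown for all 4 members, a direction that turns round under the value table's labels. Over all genes the median difference in response was 0.038. The log2 response there was 81.1% of that on the scramble-labelled arrays for Parp14, 68.3% for Parp9, 53.2% for Parp10 and 9.04% for Parp12. The difference in response, knockdown-labelled minus scramble-labelled, was -1.10 for Parp10, -1.07 for Parp12, -0.83 for Parp14 and -0.65 for Parp9, with a scanner error of about 0.289. Parp10 and Parp12 passed a size of 1 on the log2 scale, which 1.62% of the 20329 genes well above background on all 4 arrays did in that direction and 0.526% in the other. With normexp background correction Parp12 stood at -0.97 and no longer passed this size. The comparison uses all 4 arrays with 0 residual degrees of freedom and has no test.

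Between the lines, all 4 members were lower on the knockdown-labelled array in either medium, and higher instead under the value table's labels. Over all genes the median line difference was 0.0003 under AEPS and -0.021 in DMEM. Under AEPS all 4 were at least 2-fold lower, against 2.68% of all genes called lower and 1.85% called higher. Parp14 stood at 17.5% of its scramble-labelled level, Parp9 at 35.3%, Parp10 at 35.9% and Parp12 at 40.5%. Counted from the bottom of 22645 genes, Parp14 ranked 77, Parp9 308, Parp10 327 and Parp12 412. In DMEM, Parp14 at 31.0% of the scramble-labelled level was the 1 member past 2-fold, against 1.51% of all genes called lower and 2.36% called higher. Parp9 was at 55.2%, Parp10 at 76.9% and Parp12 at 85.0%, and the log2 difference of Parp12, -0.23, was little more than the scanner's error.

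The members differed in how much of the gap between the lines was already there without AEPS. On the log2 scale the DMEM gap was 67.1% of the AEPS gap for Parp14, 57.0% for Parp9, 25.6% for Parp10 and 17.9% for Parp12. Over both media, limma called 0 of the 4 members different between the lines, and 3 had an unadjusted p under 0.05, as 14.6% of all genes tested did. Of all genes tested, 0.336% were called lower and 0.398% higher. The log2 line difference was -2.10 ± 0.24 for Parp14 (SE, adjusted p = 0.083), -1.18 ± 0.20 for Parp9 (adjusted p = 0.143), -0.93 ± 0.30 for Parp10 (adjusted p = 0.317) and -0.77 ± 0.30 for Parp12 (adjusted p = 0.375). With an intensity trend in limma's variance prior the count was 3 of 4 (Parp9, Parp10 and Parp14), with normexp background correction 2 (Parp9 and Parp14), and with the stricter filter on dim genes (all 4 arrays) 1 (Parp14). The shares above belong to the main setting, and those of these other settings are not given. The member counts of these settings can therefore not be set against all genes. Of 25 interferon-stimulated effectors, 2 were called lower in the main setting, 23 with the trend, 7 with normexp and 9 with the stricter filter.

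The rest of the PARP family, not sorted by response to interferon, gives the frame for these values. Of 12 other PARP genes, limma called 1 higher under AEPS and 0 lower, and 4 had an unadjusted p under 0.05, a share close to the 33.9% of all genes tested that did. Their median effect was 0.12 on the log2 scale, beside 1.76 for the 4 members and 0.069 for all genes tested. Tiparp, a mono-ADP-ribosyltransferase induced by the aryl hydrocarbon receptor, rose by 1.14 ± 0.18 (SE, adjusted p = 0.0353), a call that was lost without the filter on dim genes (adjusted p = 0.137). Zc3hav1, the antiviral zinc-finger protein ZAP, which binds CpG-rich RNA, stood at 0.69 ± 0.14 (adjusted p = 0.056), and Parp1, the main DNA damage enzyme, at -0.73 ± 0.15 (adjusted p = 0.0532). Both passed the threshold with normexp (adjusted p of 0.00919 for Zc3hav1 and 0.00797 for Parp1), with the stricter filter (0.0276 and 0.0254) and with the intensity trend (0.00184 and 0.00389). Parp3 at 0.73 passed with the intensity trend alone (adjusted p = 0.04). Parp8 was well above background on the scramble-labelled arrays only, where its AEPS effect was 0.86. Parp11 at 0.22 did not pass the test, nor did the tankyrases Tnks and Tnks2, Parp2, Parp4, Parp6 and Parp16, which lay between -0.25 and 0.36.

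**Figure D2:**
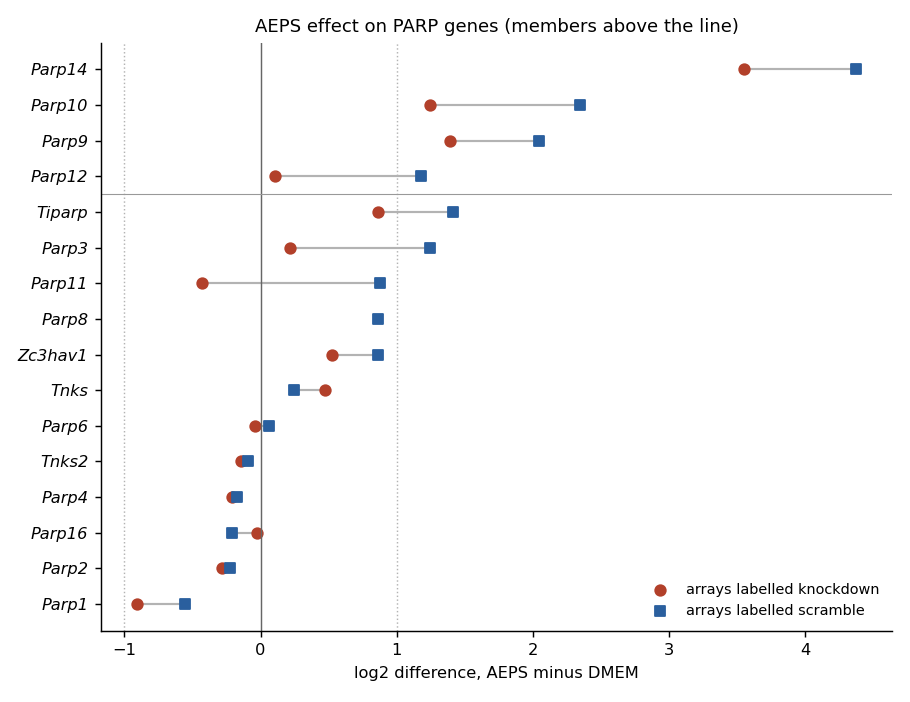
AEPS effect on the 4 members, above the thin line, and on the other 12 PARP genes (x axis, log2 AEPS minus DMEM), with circles for the arrays labelled knockdown and squares for those labelled scramble, and dotted lines at 2-fold. Parp14 lies furthest right with 3.55 and 4.38, and Parp8 has no circle because it was not well above background on either knockdown-labelled array.

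Between the lines, the median difference of these 12 genes was -0.21 under AEPS and -0.04 in DMEM, beside -1.49 and -0.62 for the 4 members. Under AEPS 2 of the 12, Parp8 and Parp11, were at least 2-fold lower on the knockdown-labelled array, and Parp8 was so in DMEM too. Of all genes, 2.68% were called lower under AEPS and 1.51% in DMEM. Over both media limma called 1 of the 12 lower, Parp8 at -3.19 ± 0.24 (SE, adjusted p = 0.0401), and 0 higher, while 0.336% of all genes were called lower. Parp8 was not well above background on either knockdown-labelled array, where it was at least 5.18-fold lower under AEPS and at least 2.68-fold lower in DMEM. In the difference in response, 2 of 11 other PARP genes passed a size of 1 in the same direction as the members, against 1.62% of all genes. The 2 genes were Parp11 at -1.30 and Parp3 at -1.03, and the median of the 11 was -0.10, beside -0.95 for the members. These signs too turn round under the value table's labels.

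**Figure D3:**
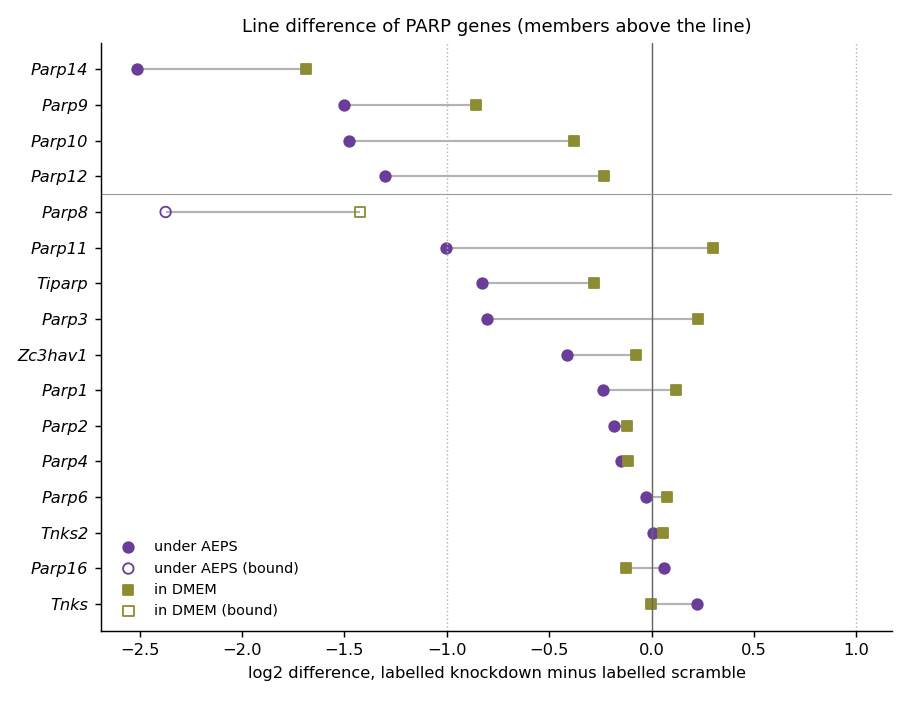
Difference between the lines for the 4 members, above the thin line, and the other 12 PARP genes (x axis, log2 labelled knockdown minus labelled scramble), with circles under AEPS, squares in DMEM, open symbols for bounds and dotted lines at 2-fold. All 4 members lie left of -1 under AEPS, and the signs of the members turn round under the value table's labels.

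Around the enzymes stand the partners, the erasers and the NAD supply. Among 8 macrodomain and ubiquitin partners limma called 2 higher under AEPS and 0 lower, namely Dtx3l and Dtx4. Dtx3l, the partner of PARP9, had a log2 level of 1.98 under AEPS and 0.66 in DMEM on the arrays labelled knockdown, and of 3.59 under AEPS and 1.34 in DMEM on the arrays labelled scramble. It rose by 1.79 ± 0.27 (SE, adjusted p = 0.0318, or 0.113 without the filter on dim genes), and its arrays stood in the same order as those of Parp9. The 3 Dtx3l probes gave AEPS effects of 1.32 to 1.55 on the knockdown-labelled arrays and 2.24 to 2.37 on the scramble-labelled ones. Dtx4, another Deltex ligase, rose by 1.62 ± 0.11 (SE, adjusted p = 0.0104, or 0.0663 without the filter) with almost the same AEPS effect in each line, 1.62 on the knockdown-labelled arrays and 1.61 on the scramble-labelled arrays.

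Of 8 genes that remove ADP-ribose, limma called 0 under AEPS in either direction, and 2 had an unadjusted p under 0.05, a share below the 33.9% of all genes. With normexp and with the intensity trend Adprh was called higher and Oard1 lower. The largest values there were -0.51 ± 0.14 for Oard1, which removes ADP-ribose from glutamate, and 0.37 ± 0.13 for Adprh, which removes it from arginine. Of 20 genes of NAD supply and use, 12 were tested and limma called 0, with 4 at an unadjusted p under 0.05, again close to the share of all genes. Normexp gave 3 higher and 0 lower, the intensity trend 3 and 1, and the stricter filter 2 and 1. Naprt and Nampt, which make NAD from nicotinic acid and from nicotinamide, stood at 0.83 ± 0.16 (adjusted p = 0.0514) and 0.64 ± 0.14 (adjusted p = 0.062).

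Of 14 interferon signalling genes limma called 5 higher under AEPS and 0 lower, with 2 higher without the filter on dim genes and 8 with normexp or the intensity trend. Ifnb1, which encodes interferon beta, was not well above background on either DMEM array. Its AEPS array was at least 29.5-fold higher on the knockdown-labelled arrays and at least 251-fold higher on the scramble-labelled arrays, with no test. Over both lines limma put the rise of Ifnb1 at 7.68 ± 0.43 (SE, adjusted p = 0.00798), a size that rests on the dim DMEM values and was 4.33 with normexp. Usp18, a brake on the receptor, rose by 4.62 ± 0.29, Socs1, a JAK inhibitor, by 3.57 ± 0.30, and Irf7, a transcription factor for interferon genes, by 2.91 ± 0.38 (SE, adjusted p of 0.00917, 0.0135 and 0.026). Under AEPS, 7 of these 14 genes were at least 2-fold lower on the knockdown-labelled array, Ifnb1 by 2.43 on the log2 scale, and in DMEM 1 of 13 was. Of all genes, 2.68% were called lower under AEPS and 1.51% in DMEM, and these directions turn round under the value table's labels.

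Among 25 interferon-stimulated effectors, limma called 22 higher under AEPS and 0 lower, or 11 higher without the filter on dim genes, with a median effect of 3.53. Ifit1, which binds foreign RNA, rose by 6.98 ± 0.36, the antiviral enzyme gene Rsad2 by 6.42 ± 0.43, the ubiquitin-like modifier Isg15 by 6.32 ± 0.12, and the GTPase gene Mx2 by 5.85 ± 0.23 (SE, adjusted p between 0.00609 and 0.00974). In this company Parp14 was near the middle, since 11 of the 25 had a larger AEPS effect. Parp9 and Parp10 were each exceeded by 21 of the 25 and Parp12 by all 25. Between the lines, 22 of the 25 effectors were at least 2-fold lower on the knockdown-labelled array under AEPS, and 13 of 24 in DMEM, with medians of -1.86 and -1.02. Of all genes, 2.68% were called lower under AEPS and 1.51% in DMEM. These directions, and that of the response below, turn round under the value table's labels. All 23 effectors well above background on every array had the smaller AEPS response on the knockdown-labelled arrays, with a median difference of -0.80. Of them 10 passed a size of 1, against 1.62% of all genes in that direction. The lists were chosen with earlier results of these data known, and these counts describe the genes beside the members without testing the lists.

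**Figure D4:**
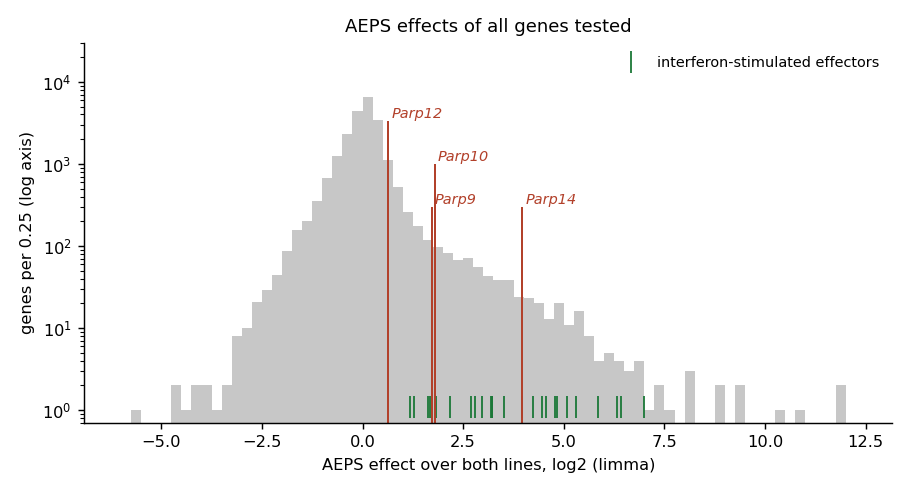
Distribution of the limma AEPS effect over both lines for the genes tested (x axis, log2, y axis, number of genes per bin of 0.25 on a log axis), with vertical lines at the 4 members and green ticks at 25 interferon-stimulated effectors. Parp12 at 0.64 lies to the left of all ticks, and Parp14 at 3.96 lies among them.

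By the root mean square distance of the centred log2 levels over the 4 arrays, 12230 genes were ordered by likeness to each member. They are those of the 20329 genes well above background on every array that have an official-style RefSeq symbol, without names such as Rik, Gm and LOC. Nearest to Parp9 was Dtx3l, its binding partner, at 0.0828, followed by Rnf224 at 0.0997 and Fam160a1 at 0.118. Nearest to Parp10 were Phf11a at 0.0876, Dtx3l at 0.114 and Oas3, an antiviral RNA sensor, at 0.131. Parp9 and Parp10 were also near each other, at a distance of 0.174, while Parp12 lay 0.586 from Parp9 and 0.583 from Parp10. Parp14, with its larger changes, lay 1.21 from Parp9, 1.23 from Parp10 and 1.79 from Parp12. Nearest to Parp14 were the interferon-induced GTPase genes Irgm2 at 0.147 and Igtp at 0.235, and Zbp1, a nucleic acid sensor, at 0.243. Nearest to Parp12 were Vwa1 at 0.0568, Oog2 at 0.102 and Setdb2, a histone methyltransferase gene, at 0.106. Over so few arrays many genes lie close by, and the distance grows with the size of a gene's changes.

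On the chromosome, by the order of the RefSeq gene table, Dtx3l is the gene next to Parp9, and Kpna1 on its other side had an AEPS effect of 0.14 ± 0.11 (SE, limma, adjusted p = 0.433). Near Parp10, Plec stood at -0.01 ± 0.12 and Grina at 0.08 ± 0.22, and near Parp12, Kdm7a stood at -0.48 ± 0.11 (adjusted p = 0.0732). Hspbap1, next to Parp14, was not well above background on any array and was not tested. On the other side of Parp14 stand the pseudogenes Gm41467 and Gm10237, with no probe of that name, then Dtx3l and Parp9. Of the named neighbours that were tested, Dtx3l alone was called by limma.

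Promoters of 300 bases, from 250 before to 50 after the transcription start, were searched for interferon elements, with sequences from RefSeq on GRCm38.p6. Of the members, Parp12 has an entry in the table. Its promoter and that of Dtx3l are shown beside those of Isg15, an effector with a large AEPS effect, and Oas3, which is among the genes nearest to Parp10. Capitals mark the ISRE core, which is GAAA, any 2 bases and GAAA again, on either strand, with overlapping copies joined.
Parp12, chr6:39118300-39118599, minus strand: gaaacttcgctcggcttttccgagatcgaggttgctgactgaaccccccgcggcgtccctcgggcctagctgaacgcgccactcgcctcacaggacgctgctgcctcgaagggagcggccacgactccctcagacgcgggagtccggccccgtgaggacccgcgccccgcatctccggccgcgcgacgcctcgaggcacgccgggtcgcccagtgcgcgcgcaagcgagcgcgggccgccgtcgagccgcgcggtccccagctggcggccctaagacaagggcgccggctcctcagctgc
Dtx3l, chr16:35938978-35939277, minus strand: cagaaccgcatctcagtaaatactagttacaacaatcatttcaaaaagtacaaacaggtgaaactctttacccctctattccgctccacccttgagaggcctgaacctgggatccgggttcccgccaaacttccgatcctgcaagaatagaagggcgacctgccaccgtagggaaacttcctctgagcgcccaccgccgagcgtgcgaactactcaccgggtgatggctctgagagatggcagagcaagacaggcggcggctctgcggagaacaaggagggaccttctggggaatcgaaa
Isg15, chr4:156200769-156201068, minus strand: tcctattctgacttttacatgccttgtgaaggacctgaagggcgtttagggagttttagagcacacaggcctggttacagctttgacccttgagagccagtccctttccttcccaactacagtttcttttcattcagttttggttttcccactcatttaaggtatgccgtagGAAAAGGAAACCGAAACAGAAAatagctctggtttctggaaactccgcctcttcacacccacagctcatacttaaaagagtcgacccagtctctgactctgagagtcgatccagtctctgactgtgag
Oas3, chr5:120777610-120777909, minus strand: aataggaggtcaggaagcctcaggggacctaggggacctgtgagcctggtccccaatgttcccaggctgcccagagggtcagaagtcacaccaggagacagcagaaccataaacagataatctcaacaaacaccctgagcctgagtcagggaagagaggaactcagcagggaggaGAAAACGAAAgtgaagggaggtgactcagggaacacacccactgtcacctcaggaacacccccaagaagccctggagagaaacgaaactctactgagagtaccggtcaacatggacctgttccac
The Isg15 window holds 3 overlapping ISRE cores, the first of them 78 bases before the start, and the Oas3 window holds 1, 75 bases before the start. The Parp12 and Dtx3l windows hold 0 copies of the ISRE core, 0 of the GAS core TTCNNNGAA and 0 of the kappa-B motif. Over all 32851 promoters, 3.44% hold the ISRE core, 8.30% the GAS core and 8.46% the kappa-B motif. The ISRE core was found in 11 of the 20 effectors with an entry and in 2 of the 11 other PARP genes, Parp4 and Parp11. The Parp12 window has 46 CpG dinucleotides and a GC content of 73.7%, and the Dtx3l window has 17, against a median of 7 over all promoters. A window without a match shows only that these letters are not in it.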

How the data were processed

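Total RNA of 4 RAW264.7 cultures was labelled with Cy3 and hybridised to 4 Agilent mouse arrays, all on 1 slide with 1 scan, per the file headers. The deposited processed intensity came from Agilent Feature Extraction 10.7.1.1, which subtracted background, removed spatial trends on each array and gave dim spots a surrogate value, per the file headers. The deposited 0 or 1 marks for spots well above background, saturated or outlying come from the same tool. The authors' deposited value table holds log2 values. Their processing was not given in the sources used here, and their scale was taken from the match with the scanner values. Probe positions are those of mm9 in the scanner files.

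From these, each array's 75th percentile of log2 processed intensity, taken over spots other than controls, was subtracted from the log2 values. Control and outlier spots were left out, spots of a probe averaged, and a gene with several probes took the brightest. Names were updated through a RefSeq table for GRCm38.p6, which matched 26687 probes on accession, 2536 on symbol and 474 on synonym, and 25984 names were kept. A probe counted as well above background when most of its spots did. Pairs of arrays were called at 2-fold. Where 1 array was dim, a bound written as "at least" was taken against whichever was higher there, the probe's own value or the lowest signal of any probe well above background. Limma 3.58.1 (R 4.3.3) fitted line and medium to 22341 genes well above background on at least 2 arrays, adjusted by Benjamini-Hochberg with calls below 0.05, and was tested on simulated data. Nothing says that cultures were repeated, so the p-values cover no more than the spread between these arrays, and the number of arrays limits the precision. Among 235 probes printed 10 times, the median SD between spots was 0.0359 to 0.0458 log2 units.

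The 4 members, 6 gene lists and the rule for named genes were chosen with earlier results of these data known. From each list the rule names up to 4 called genes with the largest AEPS effect, or up to 2 where none was called, besides the other PARP genes, the chromosome neighbours and the 3 genes most like each member. The alternatives were normexp background correction, quantile normalization, the value table with its own labels, the mean of all probes, other filters on dim genes, an intensity trend and a 3-fold threshold. A few items are not reported here.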

Additional observations from a re-analysis of the deposited data

Results flagged for a closer look

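Parp3 and Parp11, which are not among the 4 members, had effects of opposite sign that each exceeded the scanner's error of that difference, a size chosen after the data were seen. Parp11 had an AEPS effect of -0.43 on the arrays labelled knockdown and of 0.87 on the arrays labelled scramble, in log2 units. Its difference between the lines, labelled knockdown minus labelled scramble, was -1.003 under AEPS and 0.30 in DMEM. The line difference of Parp3, an enzyme of DNA break repair, was -0.81 under AEPS and 0.22 in DMEM. The scanner's error of these differences was 0.240 to 0.295 for Parp11 and 0.208 to 0.211 for Parp3, so the DMEM values barely exceeded it. Each value comes from 1 pair of arrays, the Parp11 probe was dim, with log2 levels of -3.98 to -2.98, and neither difference was tested.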

How the results depend on the processing

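The limma model already sets AEPS against DMEM within each line. No pairing beyond the line was possible, because each group holds 1 array and all carry the same replicate number. Leaving out an array would leave the limma model 0 residual degrees of freedom, so it was not done. With the value table and its own labels the line differences turned round: under AEPS they were 1.42 for Parp9, 1.40 for Parp10, 1.30 for Parp12 and 2.42 for Parp14, in DMEM 1.69 for Parp14, and the differences in response 1.09 for Parp10 and 1.06 for Parp12. So 0 members were lower there and 4 higher under AEPS, 0 lower and 1 higher in DMEM, and 0 smaller and 2 larger in response. The limma line difference of Parp8 was -3.19 in the main setting, where it was called lower (adjusted p = 0.0401). With the value table it was 3.18 and not called (adjusted p = 0.0568), and with normexp -0.79 and called (adjusted p = 0.0471). Without the filter on dim genes Parp8 was not called (adjusted p = 0.194). Its line difference rests on 2 arrays where Parp8 was not well above background. Normexp and quantile normalization kept the sign of every pairwise member difference. The mean of all probes could not change these values, since each member has 1 probe. At 3-fold, 1 member was called higher on the arrays labelled knockdown, 1 lower between the lines under AEPS, and 0 in response. Normexp left 1 member, Parp10, in the difference in response, against 2, and gave 2 in the limma line difference, against 0, where the filter of all 4 arrays gave 1 and the intensity trend 3. The shares of all genes called are those of the main setting alone, so the member counts of other settings cannot be set against all genes. Without the filter on dim genes limma called 1 member under AEPS, against 3, and 0 of the other PARP genes and of the macrodomain and ubiquitin partners, against 1 and 2. The intensity trend gave 3 higher and 1 lower among the other PARP genes, and normexp and the stricter filter 2 and 1. Over 8 settings the adjusted p of the AEPS effect ranged from 1.57e-06 to 0.0451 for Parp14, from 8.69e-05 to 0.0895 for Parp9, from 0.000354 to 0.130 for Parp10 and from 0.0598 to 0.455 for Parp12. The cause of these changes was not tested. Each member rests on 1 spot per array.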
